A study of Rattus norvegicus with 88 samples.

Results

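The genes described here encode the receptors for opioid peptides and cannabinoids and an enzyme of the same system. They are Oprm1 (ENSRNOG00000018191), the mu opioid receptor, Oprk1 (ENSRNOG00000007647), the kappa opioid receptor, Oprd1 (ENSRNOG00000010531), the delta opioid receptor, Cnr1 (ENSRNOG00000008223), the main cannabinoid receptor of the brain, and ENSRNOG00000011019. They were chosen by identifier, and all 5 identifiers had a row among the 17123 genes of the table. The fifth identifier was given with the symbol Faah, but the supplementary gene lists of the study pair Faah, fatty acid amide hydrolase, with ENSRNOG00000045949, which also has a row. ENSRNOG00000011019 is therefore called by its identifier, and ENSRNOG00000045949 is reported beside it as Faah. If these rows stand for near-identical copies, the division of reads between them is uncertain. The symbols of Oprm1, Oprk1 and Cnr1 came with the identifiers and were not checked against an annotation.

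Expression was measured by RNA-Seq of poly(A) RNA in rats of the heterogeneous stock (HS), which is outbred and descends from inbred founder strains. All rats were untreated, and orbitofrontal cortex of both hemispheres was dissected from frozen sections, so that cells of neighbouring tissue may be included. The table held 80 libraries, 1 per rat, of 88 labelled samples. By the labels there were 41 males and 39 females, in rat batches 2 (11 males and 4 females), 3 (10 and 12), 4 (12 and 14), 5 (1 female) and 6 (8 and 8). For the 88 samples, the methods of the study give the numbers of males and females the other way round from the labels, so the sign of a sex difference rests on the labels. The labels give no age, and no group received a drug or carried an engineered allele. What a rat batch stands for beyond its number is not given in the sources used here. P-values refer to the spread between rats, with no term for relatedness.

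Opioid receptors are G protein coupled receptors that inhibit adenylyl cyclase, open inwardly rectifying potassium channels and close presynaptic calcium channels. Enkephalins, cut from the product of Penk, act on delta and mu receptors, and dynorphins, from Pdyn, act mainly on kappa receptors. Cnr1 sits on axon terminals, where it responds to lipids released by the postsynaptic cell and reduces transmitter release. The lipids are degraded by enzymes that include Faah for anandamide, and Mgll and Abhd12 for 2-arachidonoylglycerol.

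Promoters of 3 of these symbols were found in the RefSeq promoter table (assembly GRCr8), each running from 250 bases before to 50 bases after a start site. Oprm1 had 2 entries. The 3 sequences below are shown because they differ in base composition, and because Oprm1 and Oprd1 are receptors of 1 family whose levels are compared across rats below. Capitals mark an E-box (CACGTG) or a GC box (GGGCGG, or CCGCCC on the other strand).
Oprm1, second entry, chr1:45585733-45586032, plus strand: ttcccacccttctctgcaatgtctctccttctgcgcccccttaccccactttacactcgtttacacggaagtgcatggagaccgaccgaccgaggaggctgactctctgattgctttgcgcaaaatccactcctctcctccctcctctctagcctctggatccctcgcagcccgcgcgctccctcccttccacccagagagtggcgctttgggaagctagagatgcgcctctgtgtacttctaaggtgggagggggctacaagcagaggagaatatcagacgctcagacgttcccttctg
Oprd1, chr5:149624950-149625249, minus strand: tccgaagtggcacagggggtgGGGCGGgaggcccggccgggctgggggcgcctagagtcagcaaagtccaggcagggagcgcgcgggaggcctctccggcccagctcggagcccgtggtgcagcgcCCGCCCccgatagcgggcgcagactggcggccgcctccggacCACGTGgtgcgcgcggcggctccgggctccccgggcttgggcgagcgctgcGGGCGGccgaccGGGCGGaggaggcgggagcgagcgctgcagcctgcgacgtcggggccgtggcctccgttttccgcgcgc
Faah, chr5:134735347-134735646, minus strand: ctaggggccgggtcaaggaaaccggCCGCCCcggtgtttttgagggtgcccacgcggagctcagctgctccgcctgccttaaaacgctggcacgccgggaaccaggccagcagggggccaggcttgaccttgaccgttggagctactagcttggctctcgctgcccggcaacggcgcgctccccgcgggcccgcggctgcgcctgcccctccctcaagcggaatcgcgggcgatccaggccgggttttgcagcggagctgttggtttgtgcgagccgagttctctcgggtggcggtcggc
The Oprd1 window was 79% G or C, above 98.8% of the promoters in the table, and held 1 E-box and 4 GC boxes. The Faah window was 69.7% G or C and held 1 GC box. The Oprm1 window shown was 57.7% G or C, and the other Oprm1 window, at chr1:45565121-45565420 on the plus strand, was 39% G or C. Neither Oprm1 window held an E-box, a GC box or a TATA box (TATAAA on either strand). Of the 33469 promoters of the table, 6.42% held an E-box, 33.1% a GC box and 14.2% a TATA box. These matches describe the letters of the window only.

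The values are normalized read counts, deposited as log2 of the count plus 1. The mu receptor gene Oprm1 was close to the limit of detection. Its normalized count was 0 in the lowest library, 9 in the median library and 26 in the highest. It was at 0 in 2 libraries and had at most 3 recovered reads in 14 of 80. Oprk1 ranged from 0 through a median of 14.5 to 48, with 1 library at 0 and 4 libraries at or under 3 reads. The 0 of Oprk1 and 1 of the 2 zeros of Oprm1 came from female 10 of batch 3, which stood apart, with 1628 genes at 0 at a depth of 20.5 M reads (M is the prefix mega), against 283 to 1244 genes in the other libraries. Some results that moved without it are given with and without it. A library at 0 allows up to 3 reads, so the absence of the transcript cannot be read from it. Oprd1 ranged from 24 through 54 to 98 and was above 0 in every library. Cnr1 ranged from 3335 through 4668.5 to 5729, so that the highest and lowest rats lay less than 1 log2 unit apart. ENSRNOG00000011019 ranged from 23 through 261.5 to 489, whereas Faah ranged from 1119 through 1685 to 2137. These levels are not divided by transcript length, so they do not order the genes against each other.

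On the log2 scale, the mean was 3.17 ± 0.97 for Oprm1, 3.83 ± 0.86 for Oprk1, 5.75 ± 0.41 for Oprd1 and 12.17 ± 0.15 for Cnr1 (SD, n = 80). It was 7.86 ± 0.75 for ENSRNOG00000011019 and 10.67 ± 0.18 for Faah (SD, n = 80). The spread among rats was taken as the residual SD after sex and rat batch were removed, and set beside the 500 genes of nearest mean level. The residual SD of ENSRNOG00000011019 was 0.67, above 98.8% of those genes, whose median was 0.21. Its SD within the column stretches of the table, described below, was 0.94 in the first, 0.28 in the second and 0.38 in the third, and with a term for the stretch its residual SD was 0.56, above 98% of its neighbours. The receptors lay nearer to the middle of their neighbours. Oprk1 had a residual SD of 0.84 (above 81.8% of its neighbours), Oprm1 0.88 (71.2%), Cnr1 0.13 (64.0%) and Oprd1 0.39 (59.0%). Without female 10 the residual SD was 0.74 (74%) for Oprk1 and 0.84 (67.8%) for Oprm1. Faah had a residual SD of 0.17 (74.6%).

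Part of this spread is the counting of reads. Poisson variation of the recovered reads around the mean of each sex and batch would give an SD of 0.52 for Oprm1, 0.40 for Oprk1 and 0.21 for Oprd1. These amount to 35.4%, 22.9% and 28.7% of the residual variance. For Cnr1 the counting SD was 0.023 (2.80% of the variance), for ENSRNOG00000011019 it was 0.10 (2.21%) and for Faah 0.038 (4.98%). The wide spread of ENSRNOG00000011019 was therefore larger than counting error. With 20 expression components removed, the residual SD of ENSRNOG00000011019 was 0.41, above 98.4% of its neighbours.

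**Figure D1:**
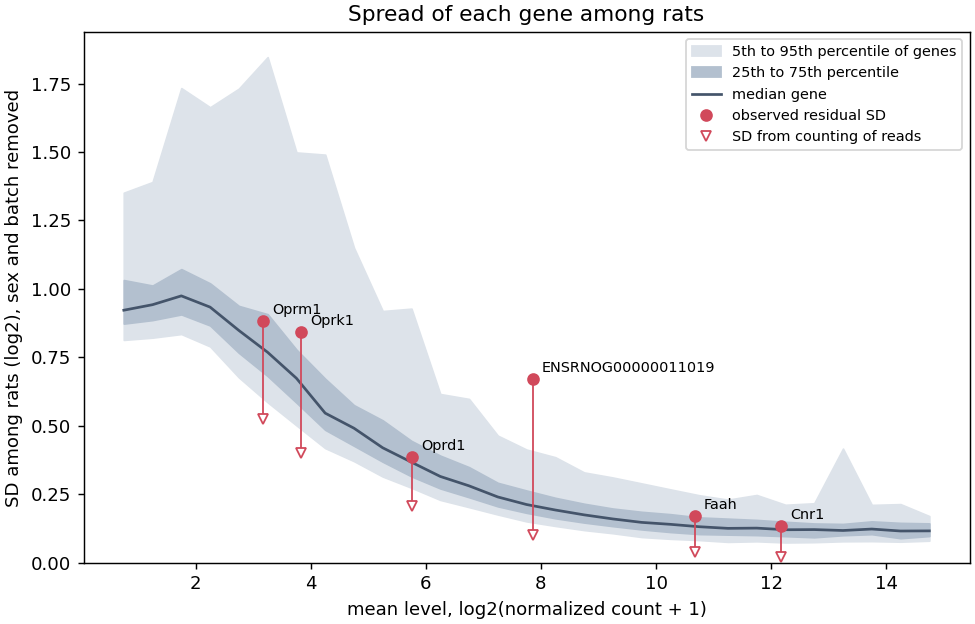
Residual SD among 80 rats (vertical axis, log2) against mean level (horizontal axis, log2 of normalized count plus 1), with filled points for the genes described, open triangles for the SD expected from counting, and shaded bands for all genes binned by mean. ENSRNOG00000011019 lies above the shaded bands, whereas the opioid receptors, Cnr1 and Faah lie inside them.

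No difference between the sexes was called. Males minus females was 0.13 ± 0.20 for Oprm1, 0.10 ± 0.19 for Oprk1, 0.14 ± 0.089 for Oprd1, 0.041 ± 0.031 for Cnr1 and 0.024 ± 0.15 for ENSRNOG00000011019 (log2 difference ± SE, n = 41 and 39). The adjusted p-values of limma over all genes were 0.956, 0.965, 0.795, 0.842 and 0.991. Faah differed by -0.0027 ± 0.038 (limma adjusted p = 0.997). Thus 0 of 5 genes passed, against 0.117% of all genes (20 of 17123), and 0 of 5 had an unadjusted p under 0.05. The same count was 0 with voom weights on recovered reads. The sexes overlapped, as for Oprd1, which ranged from 29 through 57 to 98 in males and from 24 through 51 to 83 in females. Of 16 genes of the opioid and cannabinoid pathway that could be matched to a row, 0 passed for sex. The interaction of sex and rat batch passed for 0 of 5 genes (limma, 0 with an unadjusted p under 0.05), and for 0% of all genes, of which 451 had an unadjusted p under 0.05.

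Levels differed more between rat batches. Oprm1, Cnr1 and ENSRNOG00000011019 passed the limma F test across batches 2, 3, 4 and 6, with adjusted p = 0.000463, 0.00108 and 0.000261. Oprd1 (adjusted p = 0.0610), Oprk1 (0.0904) and Faah (0.0788) did not. The count of 3 of 5 is to be read against 64.7% of all genes (11078 of 17123) that passed the same test. In bulk tissue, fewer cells of a type and less RNA per cell cannot be told apart.

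Oprm1 was lowest in batch 3. Its normalized count there ran from 0 through a median of 6 to 10. It ran from 0 through 8 to 25 in batch 2, from 2 through 13.5 to 26 in batch 4, and from 3 through 11 to 17 in batch 6. The ranges overlapped, but every count above 10 came from another batch than batch 3. Batch 4 exceeded batch 3 by 1.12 ± 0.25 (log2, SE; limma adjusted p = 0.000151) and batch 6 exceeded it by 0.97 ± 0.29 (adjusted p = 0.00305). The difference between batches 2 and 4 was 0.58 ± 0.29 (adjusted p = 0.0871). Of all genes, 42.9% passed between batches 3 and 4, 50.9% between 3 and 6, and 48.6% between 2 and 4.

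Cnr1 was also lowest in batch 3, with smaller differences. In batch 3 its normalized count ran from 3335 through 4312.5 to 5721. The medians were 4852 in batch 2 (range 3826 to 5515), 4616.5 in batch 4 (4019 to 5468) and 4833 in batch 6 (4411 to 5729). Batch 3 minus batch 2 was -0.14 ± 0.045 (limma adjusted p = 0.0283, log2), with 9.79% of all genes passing between these batches. Batch 6 exceeded batch 3 by 0.18 ± 0.044 (adjusted p = 0.000327). All batches overlapped, since a library of batch 3 held the second highest value of the table.

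The kappa and delta receptors each passed for 1 pair of batches. Oprk1 was 0.60 ± 0.24 higher in batch 4 than in batch 3 (limma adjusted p = 0.0357), with medians of 17 and 9 normalized counts. Without female 10 this difference was 0.43 ± 0.21 and did not pass (limma adjusted p = 0.0951). Oprd1 was highest in batch 2, with a median of 65 normalized counts against 43.5 in batch 6. Batch 6 minus batch 2 was -0.38 ± 0.14 (limma adjusted p = 0.0168), where 53.8% of all genes passed. Between batches 4 and 6, 0 of the 5 genes passed, and 13.6% of all genes did.

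**Figure D2:**
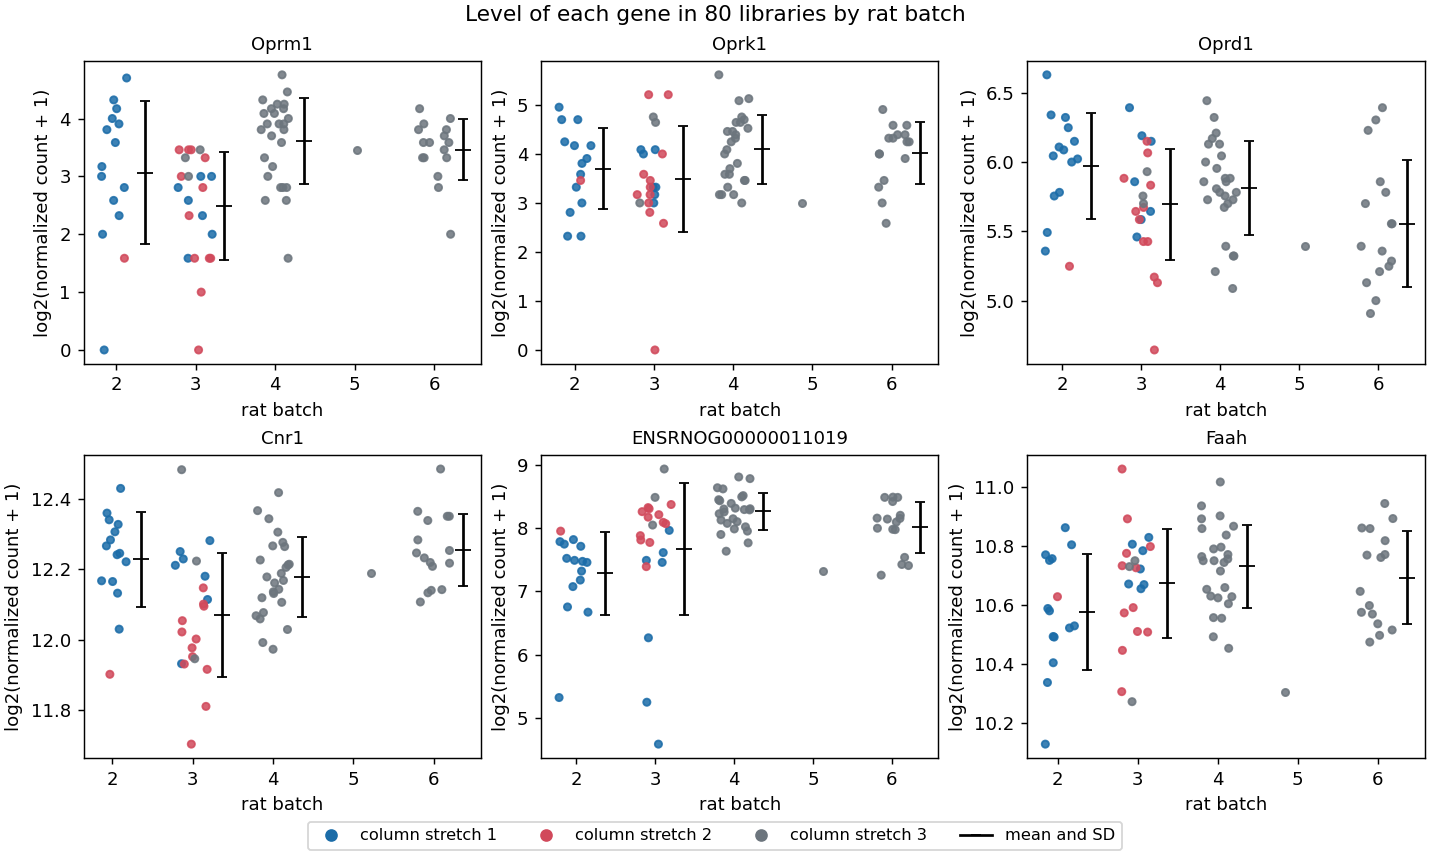
Level of each gene (vertical axis, log2 of normalized count plus 1) in every library by rat batch (horizontal axis). Points are libraries coloured by the stretch of columns of the table they belong to, and bars are the mean and SD of a batch. Oprm1 and Cnr1 are lowest in batch 3 and ENSRNOG00000011019 in batch 2, with overlap between all batches of more than 1 rat.

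ENSRNOG00000011019 was lowest in batch 2, with normalized counts from 39 through a median of 177 to 247. It ran from 23 through 256.5 to 489 in batch 3, from 198 through 312.5 to 448 in batch 4 and from 152 through 277.5 to 359 in batch 6. Batch 4 exceeded batch 2 by 0.98 ± 0.21 (log2, SE; limma adjusted p = 7.84e-05) and batch 3 by 0.59 ± 0.19 (adjusted p = 0.00766). Faah moved less, with medians between 1531 and 1722 in batches 2, 3, 4 and 6, and batch 4 exceeded batch 2 by 0.15 ± 0.055 (adjusted p = 0.0159).

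Rat batch ran alongside the order of the columns in the table. Read from left to right, the rat identifiers ascended in 3 stretches, of 21, 13 and 46 columns. All rats of batches 4, 5 and 6 were in the third stretch, 14 of 15 rats of batch 2 in the first, and batch 3 was spread over all 3 (7, 12 and 3 rats). What the stretches stand for is not given. With a term for the stretch, 0 of 5 genes passed the batch test (limma adjusted p = 0.689 for Oprm1, 0.363 for Cnr1 and 0.184 for ENSRNOG00000011019), against 18.6% of all genes. The difference between the highest and lowest batch was then 0.95 for ENSRNOG00000011019, against 0.98 without the term. It went from 1.12 to 0.43 for Oprm1 and from 0.18 to 0.075 for Cnr1 (log2). These ranges carry no sign, and the order of the batches can change with the term. With batch in the model, ENSRNOG00000011019 was 1.76 higher in the third stretch than in the first. Its range of 0.95 therefore does not show that the same batch difference remained. For most rats batch and stretch cannot be told apart. In the first stretch, batches 2 and 3 can be set side by side (14 and 7 rats), as given below for ENSRNOG00000011019. Mean depth also differed, at 17.3, 14.3 and 19.4 M recovered reads in the 3 stretches. With log2 depth in the model, Oprm1, Cnr1 and ENSRNOG00000011019 passed (limma adjusted p = 0.00131, 0.00710 and 0.00244), as did Oprk1 (0.0494).

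In the converse test, of the stretch with sex and batch in the model, Cnr1 (limma adjusted p = 0.00142) and ENSRNOG00000011019 (adjusted p = 7.17e-05) passed, 2 of 5 genes, against 19.2% of all genes. For Cnr1 the second stretch minus the first was -0.22 (log2). Its median normalized count was 4031 there, against 4840 in the first stretch and 4735.5 in the third. ENSRNOG00000011019 was higher than in the first stretch by 1.28 in the second and by 1.76 in the third. Its normalized counts ran from 23 through 175 to 249 in the first stretch, from 167 through 272 to 331 in the second and from 152 through 289.5 to 489 in the third. The 5 lowest values of this row, 23, 37, 39, 76 and 101, were all from the first stretch, in libraries of 5.66 to 22.5 M reads.

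Batch 3 alone allows the stretches to be compared within a batch. There ENSRNOG00000011019 had a median of 175 normalized counts in the first stretch (23 to 249, n = 7), 280 in the second (167 to 331, n = 12) and 358 in the third (264 to 489, n = 3). In the third stretch every library exceeded every library of the first. The limma F test inside batch 3 gave adjusted p = 0.0165, with differences of 1.44 and 1.90 from the first stretch. The library with the lowest value, male 14, had 23 normalized counts. Without it, the differences were 0.99 and 1.40 (adjusted p = 0.0424). Inside batch 3, 1 of 5 genes passed, against 11.2% of all genes, and Cnr1 had adjusted p = 0.0580. Cnr1 differed from the first stretch by -0.19 in the second and by 0.056 in the third (log2). For Oprm1 these differences were -0.28 and 0.60 (limma adjusted p = 0.523). Faah showed medians of 1689, 1618.5 and 1699 in the 3 stretches of batch 3 (adjusted p = 0.464). Of the normalized counts of the 2 rows together, ENSRNOG00000011019 held a median of 9.58% in the first stretch, 13.5% in the second and 14.7% in the third. Inside the first stretch, its median share was 10.55% in batch 2 (n = 14) and 9.03% in batch 3 (n = 7).

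**Figure D3:**
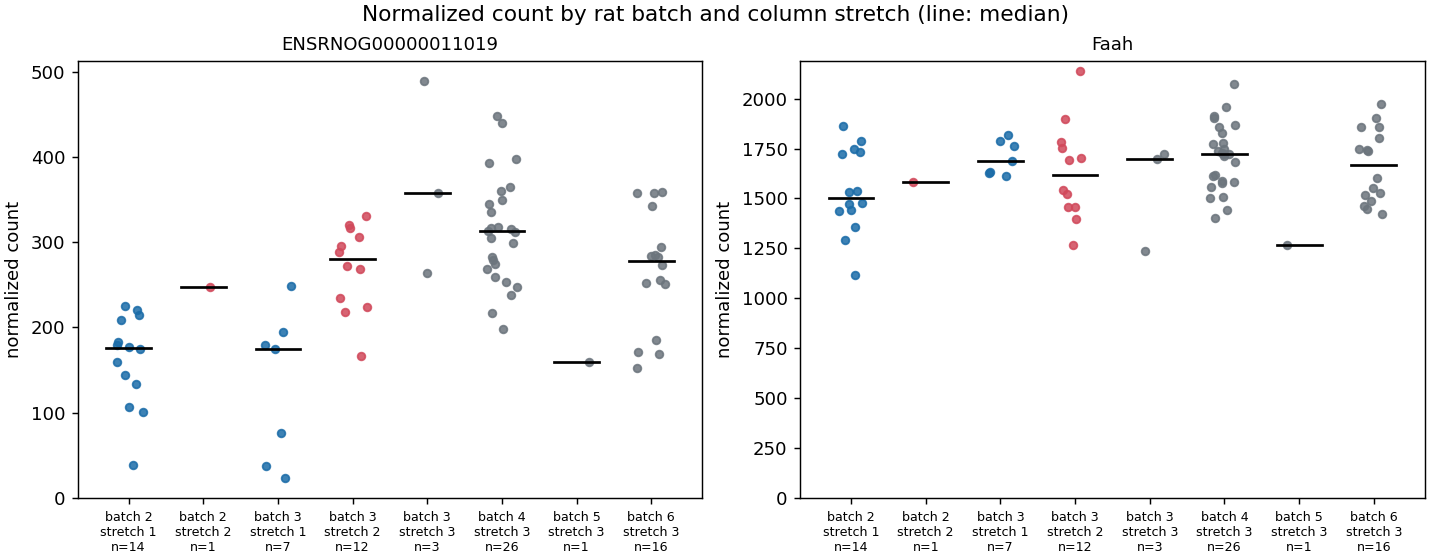
Normalized count (vertical axis, from 0) of ENSRNOG00000011019 and of Faah by rat batch and column stretch (horizontal axis), with points for libraries and lines for medians. The lowest counts of ENSRNOG00000011019 lie in the first stretch of both batches 2 and 3, whereas the Faah medians lie between 1266 and 1722.

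Other genes of the pathway were described from a list of 39 symbols, of which 16 could be paired with a row through the supplementary lists of the study. Those lists hold genes with a mapped expression or splicing QTL, or with strongly tissue-specific expression, in these animals. The 16 are therefore not a random part of the pathway. Across batches 11 of 16 passed (limma), close to the 64.7% of all genes. Among signalling genes, Arrb1, beta-arrestin 1, which binds activated receptors, had a batch range of 0.84 (log2; adjusted p = 1.10e-18), with medians of 489 normalized counts in batch 2 and 821.5 in batch 6. Cacna1b, the pore of the N-type calcium channel, had a range of 0.49 (adjusted p = 5.33e-19). Kcnj3, an inwardly rectifying potassium channel subunit, had a range of 0.32 (adjusted p = 1.31e-08). Among enzymes, Abhd12 had a range of 0.25 (adjusted p = 3.74e-09), with its highest median among batches 2, 3, 4 and 6, 3511, in batch 2. Mgll (0.19, adjusted p = 0.000180) and Napepld, an enzyme of anandamide synthesis (0.39, adjusted p = 5.22e-06), also passed. The peptide precursors Penk (adjusted p = 0.181) and Pdyn (0.559) did not, nor did Oprl1, the nociceptin receptor (0.340), Pcsk2, a prohormone convertase (0.130), or Cnr2, the second cannabinoid receptor (0.0949). These batch values hold no term for the column stretch. In the stretch test with batch in the model, Abhd12 (limma adjusted p = 0.000405) and Arrb1 (0.0180) passed. They were 2 of 16 genes, against 19.2% of all genes.

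Cell type markers were described in the same way. Of 33 fixed symbols, 8 could be paired with a row through the same supplementary lists, so they are not a random part. Across batches 7 of the 8 passed (limma), to be read against the 64.7% of all genes. No marker was at 0 in any library. The summed count of the claustrum and deep layer markers Nr4a2 and Foxp2 ran from 450 to 1369 in batch 2, 126 to 893 in batch 3, 282 to 1031 in batch 4 and 90 to 654 in batch 6. Pde10a and Gng7, found in striatal projection neurons, together ran from 1288 to 2072, 1486 to 2310, 1658 to 2522 and 1484 to 2330 in the same batches. Neurod6, found in cortical excitatory neurons, ran from 1179 to 1904, 985 to 1761, 877 to 2015 and 1103 to 2032. All 8 markers summed ran from 5313 to 5964, 4568 to 5773, 4702 to 6015 and 4355 to 5979. The genes of a sum did not always move together. From batch 3 to 4, Nr4a2 moved by 0.57 (log2; limma adjusted p = 0.0144) and Foxp2 by -0.51 (adjusted p = 0.0706). From batch 2 to 6 both were lower (-1.33 and -2.05). From batch 2 to 6, Pde10a moved by 0.83 (limma adjusted p = 1.42e-06) and Gng7 by 0.0037 (adjusted p = 0.962). From batch 2 to 4 both were higher (0.76 and 0.16). The part of the markers in the batch differences of the receptors was not tested. In the stretch test with batch in the model, 2 of 8 markers passed, against 19.2% of all genes. They were Foxp2 (limma adjusted p = 0.0152) and P2ry12, found in microglia (0.0180). Markers of oligodendrocytes and endothelium could not be paired with a row.

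Across rats, the measured correlations among the 5 genes were weak. Counting made up 35.4%, 22.9% and 28.7% of the residual variance of Oprm1, Oprk1 and Oprd1, which weakens their measured correlations. After sex and batch were removed, the correlation of 10 pairs ran from -0.17 to 0.22 and 0 of 10 had a permutation p under 0.05 (100000 permutations within sex and batch, two-sided). The closest pair was Oprm1 and Cnr1, with r = 0.22 (permutation p = 0.0612) and rho = 0.24 (p = 0.0335) over 80 rats. Without the 2 rats farthest from the median of Oprm1, r was 0.27, and within batches 2, 3, 4 and 6 it was 0.14, 0.16, 0.41 and 0.28. In the limma model over all genes this pair did not pass (adjusted p = 0.279 with Oprm1 as the covariate). The mu and kappa receptors gave r = 0.14 (permutation p = 0.284), and -0.060 without the 2 farthest rats. Oprm1 and Oprd1 gave r = 0.18 (permutation p = 0.111), and 0.078 without the 2 farthest rats. Within batches 2 and 3 this r was 0.55 and 0.31, against -0.11 in batch 4 and -0.15 in batch 6. Oprd1 and Cnr1 gave r = 0.019 (permutation p = 0.872), with 0.035 in batch 2 and 0.49 in batch 3 against -0.41 in batch 4 and -0.46 in batch 6. Cnr1 and ENSRNOG00000011019 gave r = -0.17 (permutation p = 0.204), with 0.13 and -0.16 in batches 2 and 3 and -0.49 and -0.52 in batches 4 and 6. With a term for the column stretch, r was 0.14 for Oprm1 and Cnr1 and 0.099 for Oprm1 and Oprk1. It was then -0.15 for Oprd1 and Cnr1 and -0.0045 for Cnr1 and ENSRNOG00000011019.

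Faah was compared with the receptors in the same way. With Cnr1, r was -0.28 (permutation p = 0.0162), rho was -0.33 (p = 0.00359) and r was -0.32 without the 2 farthest rats. The correlation was negative in 4 of 4 batches, at -0.32, -0.14, -0.42 and -0.44. In limma the pair passed with Cnr1 as the covariate (adjusted p = 0.0400), where 33.3% of all genes passed. It did not pass with Faah as the covariate (adjusted p = 0.0923). Over 15 alternative settings with Cnr1 as the covariate, the limma adjusted p ran from 0.00507 to 0.800, and the pair passed in 9. With Oprm1, r was -0.31 (permutation p = 0.0151, limma adjusted p = 0.0818), rho was -0.26 (p = 0.0273), and r was -0.30 without the 2 farthest rats. It was -0.55, -0.20, -0.20 and -0.24 in the 4 batches. This pair did not pass in limma with Oprm1 as the covariate, nor with Faah as the covariate (adjusted p = 0.0570). With Oprm1 as the covariate it passed in 2 of 15 alternative settings, with adjusted p from 0.0306 to 0.950. ENSRNOG00000011019 and Faah gave r = -0.17 (permutation p = 0.163). In all, 20 pairs of genes were put to the permutation test, and the limma values are adjusted over all genes.

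Receptors and the precursors of their peptides were compared in the same way. Oprk1 and Pdyn, the kappa receptor and the dynorphin precursor, gave r = -0.31 (permutation p = 0.00554), rho = -0.33 (p = 0.00286) and r = -0.30 without the 2 farthest rats. The correlation was negative in 4 of 4 batches, at -0.22, -0.44, -0.30 and -0.27, but it did not pass in the model over all genes (limma adjusted p = 0.270). Oprm1 and Penk gave r = -0.074 (permutation p = 0.572) and Oprd1 and Penk r = -0.069 (permutation p = 0.517).

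**Figure D4:**
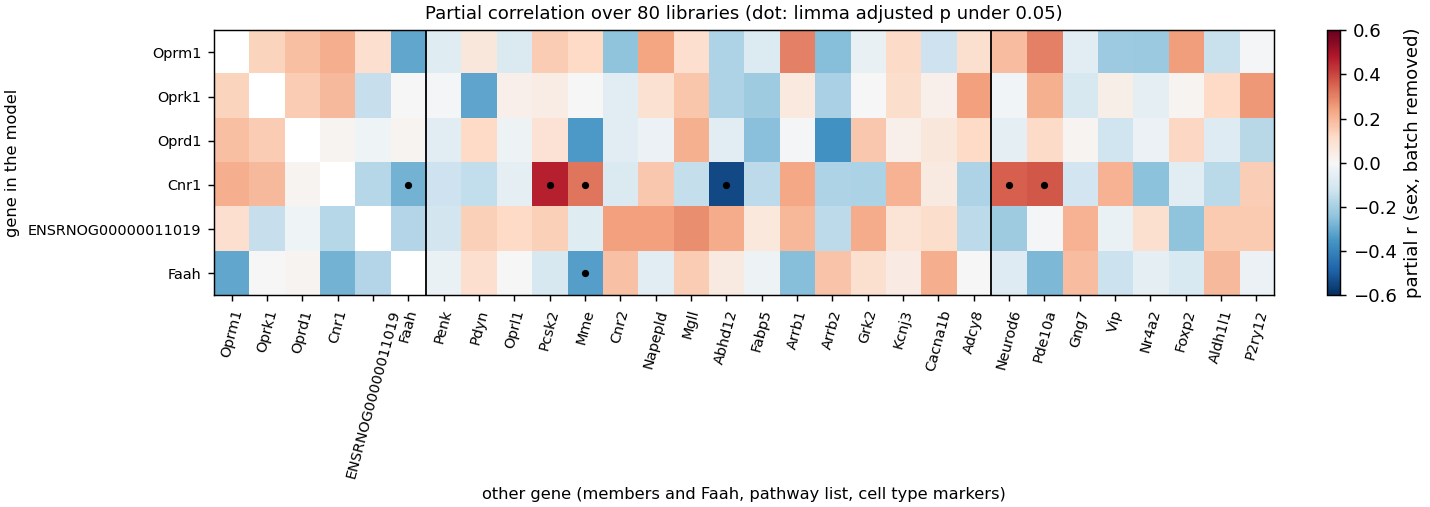
Partial correlation over 80 libraries, sex and batch removed, of each gene described (rows) with the other genes, the 16 pathway genes and the 8 cell type markers (columns), from blue (negative) to red (positive). Dots mark pairs with a limma adjusted p under 0.05, with the gene of the row as the covariate. They lie in the rows of Cnr1 and Faah.

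The receptors differed in how much of the table moved with them. With Cnr1 as the covariate 33.3% of the other genes passed, 2734 in the same and 2965 in the opposite direction. The share was 4.68% for Oprm1 (618 and 183 genes), 1.94% for Oprd1 (172 and 161) and 0.0175% for Oprk1 (3 and 0). Without female 10, 0 genes passed with Oprk1 in limma, and 1122 had an unadjusted p under 0.05. It was 0.531% for ENSRNOG00000011019 and 9.12% for Faah. The part of the spread that is counting differs between these genes, so the shares do not rank them. Of the 16 pathway genes, 3 passed with Cnr1, to be read against the 33.3% of all genes. Abhd12 fell as Cnr1 rose (r = -0.54, limma adjusted p = 7.96e-06), and r was between -0.57 and -0.46 in the 4 batches. With a term for the column stretch r was -0.38 (limma adjusted p = 0.00593), and with 20 expression components it was -0.25 and did not pass (adjusted p = 0.476). Pcsk2 rose with it (r = 0.46, adjusted p = 0.000253), as did Mme, neprilysin, which cleaves enkephalins (r = 0.32, adjusted p = 0.0192). Mgll gave r = -0.14 (permutation p = 0.258). With Faah, Mme passed (r = -0.33, limma adjusted p = 0.0468), but in only 4 of 15 alternative settings, with adjusted p up to 0.680. For Oprm1, Oprk1, Oprd1 and ENSRNOG00000011019, 0 of 16 pathway genes passed in limma, and 4, 2, 3 and 3 had an unadjusted p under 0.05. These counts are to be read against 3334, 1712, 2841 and 2489 of the 17122 other genes with an unadjusted p under 0.05.

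Of the 8 cell type markers, 2 passed with Cnr1, to be read against the 33.3% of all genes. They were Neurod6 (r = 0.36, limma adjusted p = 0.00575) and Pde10a (r = 0.37, adjusted p = 0.00374), and the median r over the 8 was 0.044. Gng7, the other striatal marker with a row, did not pass (r = -0.11, limma adjusted p = 0.485). The part of the markers in the co-variation of Cnr1 was not tested. With the other genes of the set and with Faah, 0 of 8 markers passed, and between 0 and 3 had an unadjusted p under 0.05. Of the 17122 other genes, between 1712 (with Oprk1) and 4319 (with Faah) had an unadjusted p under 0.05.

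**Figure D5:**
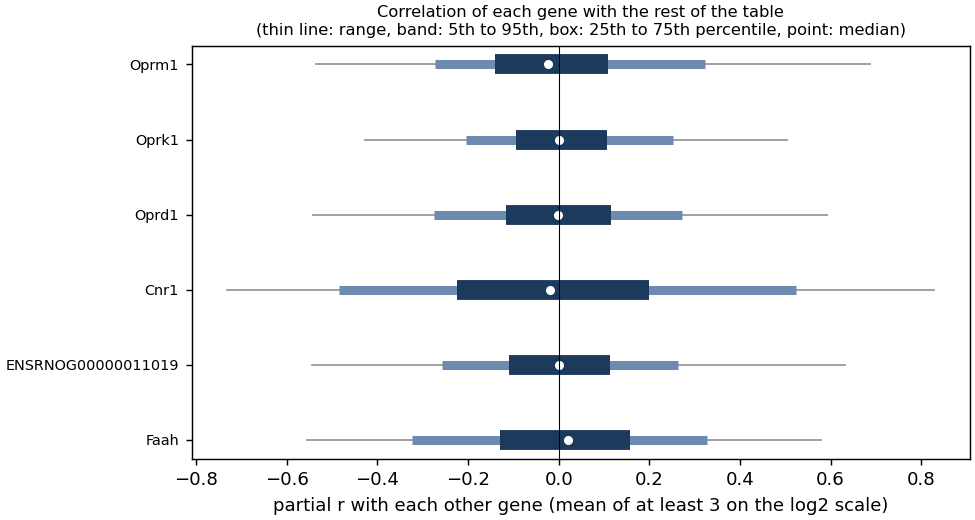
Partial correlation (horizontal axis) of each gene described with the 14802 other genes of mean level at least 3 (log2), shown as the range, a wide and a narrow percentile band and the median. The range of Cnr1 is -0.73 to 0.83, against -0.43 to 0.50 for Oprk1.

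The genes most like each member were taken as the 2 highest and 2 lowest partial correlations among genes with a mean of at least 3 (log2), over 80 rats. For Oprm1 these were Afdn, a cell junction protein (r = 0.69), and ENSRNOG00000045816 (0.62), with ENSRNOG00000000551 (-0.54) and Mb21d2 (-0.53) at the other end. For Cnr1 they were ENSRNOG00000003343 (0.83) and ENSRNOG00000056703 (0.82), with ENSRNOG00000028674 (-0.73) and Mtx1 (-0.72). Oprd1 was most like ENSRNOG00000046851 and ENSRNOG00000011475 (both 0.59) and least like ENSRNOG00000009192 (-0.54) and ENSRNOG00000018718 (-0.52). Oprk1 was most like ENSRNOG00000051080 (0.50, but 0.31 and not passing without female 10, limma adjusted p = 0.739), and its 2 lowest, ENSRNOG00000020318 (-0.43) and ENSRNOG00000039581 (-0.40), did not pass (limma adjusted p = 0.0933 and 0.103). ENSRNOG00000011019 was most like Mrpl36, a mitochondrial ribosomal protein (0.63), and ENSRNOG00000009598 (0.56), with ENSRNOG00000057501 (-0.54) and ENSRNOG00000000934 (-0.52) at the other end. Faah was most like Mta1 (0.58) and ENSRNOG00000021184 (0.56), and least like Fam49a (-0.56) and ENSRNOG00000000204 (-0.54). The identifiers without a symbol are not paired with one in the supplementary lists.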

How the data were processed

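The table holds 80 HS rats, orbitofrontal cortex only. Per the labels and the methods of the study, the authors used cutadapt on single-end reads, estimated counts per gene with RSEM against the Ensembl rat transcriptome (Rnor_6.0), applied the upper quartile adjustment of DESeq2, and deposited log2(count + 1). Of 88 labelled samples, 8 marked as removed (4 with few reads, 2 with outlying expression, 2 with mismatched genotypes) have no column and were not analysed here. All deposited log2 values gave whole numbers on the linear scale, within a relative departure of 3.47e-06. The step between low values gave the depth, 5.66 to 25.6 M reads (M is the prefix mega; median 18.1 M), and recovered reads. The limit of 3 reads for a library at 0 covers counting error only. The SDs and SEs given with ± are over rats.

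Tests used limma 3.58.1 in R 4.3.3 (lmFit, eBayes with trend) over all 17123 genes, with Benjamini-Hochberg adjustment and a threshold of 0.05: sex with rat batch as a factor, an F test across batches of at least 5 rats with sex, their interaction, and each other gene on a member with sex and batch. Pairs were also tested by 100000 permutations. The named genes are the member identifiers, Faah, the pathway and marker lists, and the 2 highest and 2 lowest correlations of each member. One gene that this rule names is not reported here. Scripts were tested on simulated data. Members and lists were chosen with earlier results of these data known. The column stretch test, the voom fit, the fit without 8 libraries of step over 1.5, the fits without male 14 or female 10 and the residual SD with a stretch term were added after seeing the data. RefSeq tables matched 0 Ensembl identifiers. Libraries are named by sex and a number in accession order. Python 3.11.15, numpy 2.4.6, pandas 2.3.3 and scipy 1.17.1 were used.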

Additional observations from a re-analysis of the deposited data

Results flagged for a closer look

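In male 14 of rat batch 3, ENSRNOG00000011019 was at 4.59 on the log2 scale (23 normalized counts), against 7.49 in the nearest of the other 9 males of that batch. The gap was a share of 0.745 of the range of the 10 males, beyond the limit of Dixon's test. This was 1 of 24 groups of 4 to 10 rats (6 genes, by sex within batch) that were examined, and chance marks about 1 in 20 such groups. The values without this library stand beside the comparison of column stretches inside batch 3.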

How the results depend on the processing

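No paired analysis was possible because each rat gave 1 library and its number only follows accession order. The count of members passing across batches was 3, and fell to 0 once the column stretch was in the model and to 0 with 20 expression components, where 3178 and 1 of all genes passed against 11078; it was between 2 and 4 under the other settings. The stretch test called 0 members with 20 components (6 of all genes), against 2, and between 2 and 3 otherwise; it could not be fitted without rat batch 3. Pairs of members passing in co-variation numbered 0, but 2 with no sex and batch terms and 1 with ranks. Residual SDs with a pseudocount of 10 were 0.38 for Oprm1 and 0.47 for Oprk1, and with 20 components 0.41 for ENSRNOG00000011019.

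No sex difference of a member passed under 15 alternatives, though signs turned. With 20 components Oprm1 was at -1.74 (limma adjusted p = 0.578) and Oprd1 at -0.42 (0.823), while Oprk1 was at 1.14 (0.786). The components come from the same values and can hold sex, so these sizes are not read as sex differences. ENSRNOG00000011019 was at -0.0230 with the stretch term, -0.037 without rat batch 3, -0.035 without batch 4 and -0.075 with no batch term. Oprm1 was at -0.040 without batch 3, Oprk1 at -0.073 without batch 6, and Faah at 0.0014 with the stretch term and 0.032 without batch 4. With 20 components the correlation turned to -0.070 for Oprm1 and Cnr1, 0.12 for Cnr1 and Faah, 0.072 for Cnr1 and ENSRNOG00000011019, 0.083 for Oprm1 and Penk, 0.033 for Cnr1 and Mgll, and -0.21 for Cnr1 and Mme.

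Batch calls rested on particular batches: without batch 3, Cnr1 (limma adjusted p = 0.172) and Oprm1 (0.225) did not pass, and without batch 4, ENSRNOG00000011019 (0.0704) did not. Without the 8 shallow libraries Cnr1 had limma adjusted p = 0.0611. The number of genes moving with a member depended on the setting, from 110 to 6645 for Cnr1, 0 to 5149 for Oprm1, 0 to 688 for Oprk1, 0 to 1548 for Oprd1, 0 to 4609 for ENSRNOG00000011019 and 1 to 2057 for Faah. At most 3 reads were recovered in 14 libraries for Oprm1 and 4 for Oprk1, and counting made up 35.4%, 22.9% and 28.7% of the residual variance of Oprm1, Oprk1 and Oprd1. Without female 10, Oprm1 and Faah passed with Oprm1 as the covariate (limma adjusted p = 0.0411). Faah and Mme did not pass with Faah as the covariate (adjusted p = 0.0513).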
